A study of Mus musculus and Homo sapiens with 34 samples.

Results

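The response of 1027B mouse lung tumour organoids to MRTX1133 was read from 4 of the 34 RNA sequencing libraries of the series, 2 from organoids given 20 nM MRTX1133 for 48 hours and 2 from organoids given vehicle. These libraries were taken by their labels and no measured value entered the choice. Per the labels all 4 carry p53frt and Rosa-FSF-CreERT2 together with the pair Foxa1flox and Foxa2flox: p53 is flanked by FRT sites, an FRT-flanked stop cassette holds back a tamoxifen-dependent Cre until Flp recombinase acts, and both Foxa genes are floxed. No tamoxifen is named for the 1027B organoids, and transcripts of Foxa1 (64.3 to 101 CPM, read counts scaled to library size, over the 4 libraries) and Foxa2 (118 to 148 CPM) were present in each. The medium was 50% L-WRN conditioned medium, which supplies WNT3A, R-spondin and noggin. 1027B is 1 culture, and the labels do not say whether its replicates are separate cultures, so the p-values measure only the spread between these samples, which may be technical. Another pair of 1027B libraries, given 10 nM of the MEK inhibitor trametinib for 48 hours, and a second organoid culture, 3154, given ethanol with vehicle or with 3 nM MRTX1133 for 48 hours, served for comparison. The 3154 organoids carry the same p53frt and Rosa-FSF-CreERT2 alleles with Hnf4aflox.

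The RAF, MEK and ERK kinases form a cascade that carries growth signals from the cell membrane to the nucleus. MRTX1133 acts above this cascade, and trametinib blocks MEK within it. ERK switches on transcription factors of the AP-1 and ETS families and also its own inhibitors, the DUSP phosphatases and the Sprouty proteins, so the transcripts of these inhibitors are widely read as a measure of ERK activity. In lung adenocarcinoma the pathway also bears on cell identity: alveolar type 2 cells make surfactant, alveolar type 1 cells form the thin gas exchange surface, and tumours can take on gastric or intestinal features under regulators such as HNF4A.

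Promoter sequence is shown first for 4 sets of genes among the most changed. The windows come from RefSeq (GRCm38.p6), each printed 5′ to 3′ on the strand of the named gene. Col4a3 and Col4a4 encode collagen IV chains of the alveolar basement membrane, stand head to head with starts 71 bases apart, and both rose with MRTX1133, so the whole 71-base interval is printed on the Col4a4 strand (chr1:82586850-82586920, minus strand). Slc7a11, the cystine transporter, fell; the 150 bases that end 1 base before its start (chr3:50443615-50443764, minus strand) hold, in capitals, a pair of matches to the C/EBP-ATF response element TGATGNAA, which ATF4 is known to bind. Cym, which encodes the stomach protease chymosin, had the largest rise among genes above 10 CPM, and its window (chr3:107221733-107221882, minus strand) has a TATA box letter run, TATAAA, in capitals. Gkn2, a stomach mucus gene of the gastrokine family, fell strongly, and the 150 bases shown (chr6:87373207-87373356, plus strand) carry the same run in capitals.
Col4a4 to Col4a3 interval: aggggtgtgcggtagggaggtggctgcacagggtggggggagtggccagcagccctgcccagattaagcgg
Slc7a11: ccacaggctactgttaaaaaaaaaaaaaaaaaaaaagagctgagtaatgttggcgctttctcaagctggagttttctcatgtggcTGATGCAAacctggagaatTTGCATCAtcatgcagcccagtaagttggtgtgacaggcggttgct
Cym: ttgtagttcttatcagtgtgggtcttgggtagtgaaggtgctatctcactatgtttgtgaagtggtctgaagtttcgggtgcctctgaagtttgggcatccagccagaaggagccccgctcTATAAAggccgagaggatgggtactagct
Gkn2: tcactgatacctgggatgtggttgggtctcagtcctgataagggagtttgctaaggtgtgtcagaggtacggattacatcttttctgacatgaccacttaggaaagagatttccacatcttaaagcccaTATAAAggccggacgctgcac

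Both response element and TATAAA were chosen as search terms after the expression changes were known. Over windows of 300 bases (250 before and 50 after the start), searched on both strands, 10409 of 14549 tested gene symbols had a RefSeq window. TGATGNAA was present in 2.11% of these, and in 5 of the 17 windows found for a list of ATF4 target genes (29.4%): Slc7a11 with 2 matches, and Asns, Trib3, Chac1 and Pck2 with 1 each. Among called genes it was present in 3.32% of windows for those lower and 3.00% for those higher, about as often in either direction. TATAAA was present in 7.48% of all windows, 7.21% of those of genes called higher and 9.14% of those of genes called lower, so the run shared by Cym and Gkn2 was about as frequent in either direction. The AP-1 motif TGANTCA was present in 5.25% of all windows, in 9.42% for genes called lower and in 3.00% for genes called higher. The ETS core CCGGAA was present in 28.5% of all windows and in fewer of either called group, 17.5% for lower and 13.8% for higher. These matches describe letters in a window and were not tested as binding sites.

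Total counts per library ran from 19692517 to 26064130 in the 1027B table. Mitochondrial transcripts made up 3.31% to 3.49% of counts in the 3 libraries numbered 1 and 1.50% to 2.00% in the 3 numbered 2. The first principal component held 64.9% of the variance and put the MRTX1133 libraries (14.4 and 4.80) between vehicle (-58.8 and -59.8) and trametinib (60.3 and 39.1), while the second (15.2%) separated the replicate numbers. Libraries with the same number deviated together in every pair of groups, so counts from a fit with the replicate number as a block are given beside those without it. The epithelial markers Epcam, Cdh1, Krt8, Krt18, Krt19, Cldn18 and Nkx2-1 summed to between 8724 and 9638 CPM in the 4 libraries, in keeping with the label. The listed markers of fibroblasts (2 of 7 listed), endothelium (1 of 6) and neuroendocrine cells (1 of 5) summed to at most 1.69 CPM, and leukocyte markers (5 of 9 listed) to 7.85 and 8.38 CPM in vehicle and 5.63 and 5.72 CPM with MRTX1133.

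With MRTX1133, 913 of 14555 tested genes changed against vehicle (6.27%; edgeR quasi-likelihood test, Benjamini-Hochberg adjusted p below 0.05), 438 higher (3.01%) and 475 lower (3.26%). Of these, 417 changed at least 2-fold, 212 up and 205 down, and the changes of at least 8-fold were 44 rises and 24 falls. The groups did not overlap for any of the 913, which holds for 52.5% of all tested genes. With the replicate block 3515 genes were called (24.1%), 1663 higher (11.4%) and 1852 lower (12.7%), among them all 913 in the same direction. The count rested on each library: it was 138 without MRTX1133 replicate 1, 168 without replicate 2, 201 without vehicle replicate 1 and 349 without replicate 2. Of 76 named genes that were called, 22 kept their call under every alternative with a value, and no named gene changed sign. Those 22 were Cym, Cyp2f2, Sec14l3, Scnn1b, Scnn1g, Gm38655, Upk3a, Fgfr3, Ifit2, Timp3 and Mmp14 among rises, and Dmbt1, Olfm5, Gkn2, Hdc, Pthlh, Lamp3, Fosl1, Slc7a11, Il33, Itga2 and Itga6 among falls.

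Cym stood at 22.6 and 13.4 CPM in vehicle and at 2116 and 743 CPM with MRTX1133, a log2 change of 6.31 (SE 0.724, adjusted p 0.00946). The MRTX1133 libraries differed nearly 3-fold from each other, and both lay far above vehicle. Sec14l3, a lipid transfer protein of airway epithelium, went from 0.145 and 0.596 CPM to 16.7 and 16.4 CPM (log2 change 5.51, SE 0.347, adjusted p 0.00244). At the other end Dmbt1, a secreted mucosal scavenger receptor, fell from 29.8 and 25.7 CPM to 1.08 and 2.09 CPM (log2 change -4.15, SE 0.314, adjusted p 0.00365). Pthlh, which encodes parathyroid hormone-related protein, fell from 61.2 and 58.5 CPM to 8.80 and 8.03 CPM (log2 change -2.83, adjusted p 0.00579). Hdc, the histamine-forming enzyme, fell from 60.2 and 69.3 CPM to 4.68 and 9.77 CPM (log2 change -3.18, adjusted p 0.00677). Cd53, a leukocyte tetraspanin, fell from 14.5 and 9.70 CPM to 1.15 and 0.150 CPM (log2 change -4.13, adjusted p 0.0260), beside the lower leukocyte marker sum given above, whose part in this result was not tested. Among abundant transcripts, Anxa2, a calcium-dependent membrane protein, fell from 2290 and 2136 CPM to 1005 and 1010 CPM (log2 change -1.13, adjusted p 0.00841).

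Of 22 tested core members of the pathway itself, from the upstream exchange factors and adaptors to the RAF, MEK and ERK kinases, 3 were called, 1 higher and 2 lower, beside 6.27% of all genes (median log2 change -0.08, against 0.01 over all genes). Ksr1, a scaffold that holds RAF and MEK together, fell from 39.6 and 49.9 CPM to 22.8 and 24.6 CPM (log2 change -0.92, adjusted p 0.0210). Shc1, an adaptor of activated receptors, fell by 0.43 on the log2 scale (adjusted p 0.0446), and Mras rose from 0.291 and 0.217 CPM to 1.26 and 0.947 CPM (log2 change 2.10, adjusted p 0.0467). With the block 8 core members were called, 6 of them lower, beside 24.1% of all genes. All 3 calls were lost without either MRTX1133 library and without vehicle replicate 2, and 1 was kept without vehicle replicate 1.

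Some of the negative regulators that ERK induces fell. Of 12 tested ERK feedback inhibitors 4 were called, all lower, beside 3.26% of all genes lower, and 8 with the block, again all lower, beside 12.7%; 10 of the 12 had a log2 change below 0 (median -0.46). Dusp6, the phosphatase that acts on ERK, went from 246 and 296 CPM to 114 and 123 CPM (log2 change -1.20, SE 0.207, adjusted p 0.0248). Spry4 went from 12.4 and 14.5 CPM to 4.49 and 2.29 CPM (log2 change -1.97, adjusted p 0.0238), and Dusp4 and Dusp5 fell by 1.11 and 1.09 on the log2 scale (adjusted p 0.0362 and 0.0353). No MRTX1133 library overlapped a vehicle library for any of these 4, which holds for all 913 called genes and for 52.5% of all tested genes. The calls rested on single libraries, since 1 was kept without MRTX1133 replicate 1 and 0 without any other library.

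Among 16 tested transcription factors downstream of ERK 2 were called, both lower (beside 3.26% of all genes lower), with a median log2 change of -0.48. With the block 8 were lower and 1 higher, beside 12.7% and 11.4% of all genes. Fosl1, an AP-1 subunit with 57.2% of its exon bases opposite another gene, fell from 48.5 and 56.0 CPM to 14.1 and 10.7 CPM (log2 change -2.07, SE 0.225, adjusted p 0.00840). Etv4, an ETS factor, fell by 1.35 on the log2 scale (adjusted p 0.0175). The immediate early gene Egr1 stood at 19.9 and 16.1 CPM in vehicle and at 19.1 and 13.4 CPM with MRTX1133 (log2 change -0.14, adjusted p 0.771), against 2.09 and 2.75 CPM with trametinib. Leaving out any library left 1 of the 2 calls.

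Receptors and ligands moved in both directions. Of 14 receptor tyrosine kinases 2 rose and 2 fell, and 3 and 4 did with the block, beside 3.01% and 3.26% of all genes without the block and 11.4% and 12.7% with it. Fgfr3 rose from 10.4 and 14.1 CPM to 45.7 and 42.5 CPM (log2 change 1.85, adjusted p 0.00567), and a share of 13.9% of its exon sequence has another gene on the opposite strand. Igf1r, the IGF1 receptor, rose from 26.2 and 25.8 CPM to 46.4 and 53.7 CPM (log2 change 0.94, adjusted p 0.0170). Fgfr4 fell from 14.8 and 9.32 CPM to 2.49 and 2.04 CPM (log2 change -2.41, adjusted p 0.0111), and Epha2, an ephrin receptor, fell by 1.14 (adjusted p 0.0141), so that 2 FGF receptors moved in opposite directions. Egfr, Erbb2 and Met had log2 changes between 0.11 and 0.15 and were not called. Without either MRTX1133 library only the rise of Fgfr3 was kept.

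Among 15 growth factor ligands 2 rose and 3 fell (3.01% and 3.26% of all genes), and 3 and 6 did with the block (11.4% and 12.7%). The EGFR ligands Areg, Ereg and Tgfa were lower and Fgf1 and Pdgfa higher. Areg went from 70.4 and 77.3 CPM to 32.9 and 31.6 CPM (log2 change -1.20, adjusted p 0.0298), Ereg fell by 0.94 (adjusted p 0.0328) and Tgfa by 0.65 (adjusted p 0.0451) on the log2 scale. Fgf1 rose from 62.4 and 53.5 CPM to 103 and 87.7 CPM (log2 change 0.72, adjusted p 0.0474). Pdgfa, with 26.1% antisense overlap by another gene, rose by 0.64 (adjusted p 0.0349). None of the 5 ligand calls was kept without either MRTX1133 library or without vehicle replicate 1.

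**Figure D1:**
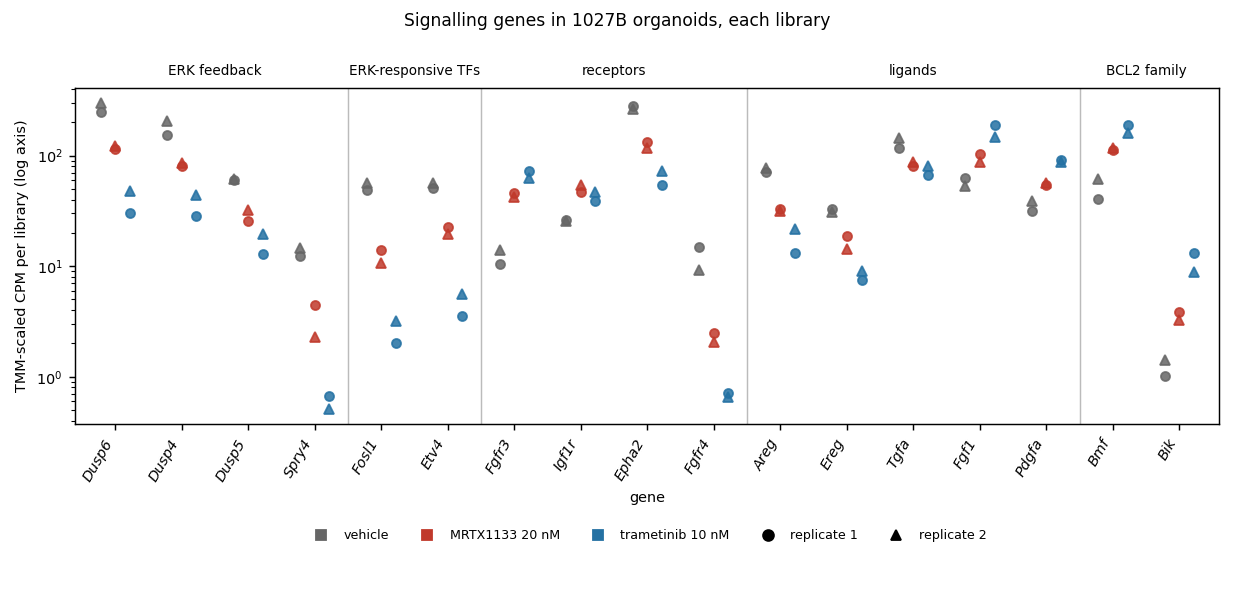
Expression of signalling genes in each 1027B library, as TMM-scaled CPM on a log axis, with vehicle in grey, 20 nM MRTX1133 in red and 10 nM trametinib in blue; circles are replicate 1 and triangles replicate 2. Dusp6, Dusp4, Dusp5 and Spry4 stand lower with MRTX1133 than in vehicle and lower still with trametinib.

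Alveolar type 1 markers were mostly higher. Of 16 tested members 7 were called higher and 1 lower, with a median log2 change of 1.49 and 14 of 16 above 0, and with the block 13 were called higher and 1 lower (DESeq2 called 11 and 1). Of all genes 3.01% were higher, 11.4% with the block, and 813 of 14555 with DESeq2. The 3 subunits of the epithelial sodium channel, which clears fluid from the airspace, all rose. Scnn1a went from 13.2 and 14.6 CPM to 74.0 and 69.0 CPM (log2 change 2.36, adjusted p 0.00222). Scnn1b went from 0.387 and 0.217 CPM to 13.6 and 10.0 CPM (log2 change 5.24, adjusted p 0.00364), and Scnn1g from 0.775 and 1.35 CPM to 16.8 and 15.8 CPM (log2 change 3.94, adjusted p 0.00222). Scnn1g and Scnn1b are neighbours on chromosome 7, with 96562 bases between the end of the first and the start of the second.

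The head-to-head collagen pair, whose shared interval is printed above, rose by nearly the same amount. Col4a4 went from 4.84 and 7.04 CPM to 44.1 and 50.5 CPM (log2 change 3.00, SE 0.192, adjusted p 0.00244). Col4a3 went from 1.99 and 6.99 CPM to 28.3 and 44.1 CPM (log2 change 3.02, SE 0.500, adjusted p 0.0221). Rtkn2 rose by 1.78 and Akap5, a kinase anchor, by 1.56 on the log2 scale. The type 1 cell receptor Ager stood at 25.1 and 116 CPM in vehicle and at 355 and 661 CPM with MRTX1133, and it was called with the block but not without it (log2 change 2.85, adjusted p 0.0635 and 0.000354 with the block). The water channel Aqp5 fell from 1125 and 1102 CPM to 738 and 766 CPM (log2 change -0.57, adjusted p 0.0429), a call lost without any 1 of the 4 libraries. The list's count of rises was 5 without either MRTX1133 library, 6 without vehicle replicate 1 and 8 without vehicle replicate 2.

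Alveolar type 2 markers did not move one way. Of 16 tested members 3 rose and 2 fell, with a median log2 change of 0.14, and with the block 4 rose and 6 fell. Over all genes the shares were 3.01% and 3.26%, and 11.4% and 12.7% with the block. Sftpc, which encodes surfactant protein C, went from 26.8 and 105 CPM to 333 and 459 CPM (log2 change 2.59, adjusted p 0.0454), and Hc, complement C5, from 2.91 and 6.34 CPM to 49.5 and 23.7 CPM (log2 change 3.00, adjusted p 0.0226). Lamp3, a membrane protein of lamellar bodies, fell from 208 and 155 CPM to 29.7 and 28.8 CPM (log2 change -2.63, SE 0.156, adjusted p 0.00222). Cxcl15, the chemokine lungkine, fell from 135 and 134 CPM to 72.2 and 74.6 CPM (log2 change -0.88, adjusted p 0.0148). Sftpb stood at 5948 and 9849 CPM in vehicle and at 2311 and 3767 CPM with MRTX1133, and Sftpa1 at 59.7 and 106 CPM against 6.95 and 22.1 CPM; both were called lower with the block and not without it (adjusted p 8.05e-05 and 0.000156). Surfactant transcripts therefore lay on both sides of 0. Without MRTX1133 replicate 1 no rise and 1 fall were called, and 1 fall was also kept without each other library, with 1 or 2 rises.

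Of 8 tested airway markers 3 rose and 0 fell (median log2 change 1.77); 6 rose and 1 fell with the block, and 4 and 1 with DESeq2. Of all genes 3.01% rose, 11.4% with the block, and 813 of 14555 with DESeq2. Cyp2f2, a club cell cytochrome, went from 0.339 and 1.62 CPM to 74.5 and 42.2 CPM (log2 change 5.93, SE 0.712, adjusted p 0.0102), with 13.5% of its exon bases opposite another gene. The carbonyl reductase Cbr2 went from 0.436 and 5.47 CPM to 32.4 and 39.4 CPM (log2 change 3.63, adjusted p 0.0400), where the vehicle libraries differ by over 10-fold, and it was not called without either MRTX1133 library. Leaving out MRTX1133 replicate 1 left 1 rise in the list, and leaving out replicate 2 gave 1 rise and 1 fall. Aldh1a1, a retinal dehydrogenase, rose by 1.37 on the log2 scale (adjusted p 0.0148).

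Gastric markers fell in 5 of 16 tested cases and rose in 1, with a median log2 change of -0.17, and with the block 8 fell and 2 rose. Of all genes 3.26% fell and 3.01% rose, and 12.7% and 11.4% did with the block, so the share that rose with the block is near that of all genes. Gkn2 went from 806 and 617 CPM to 45.3 and 64.3 CPM (log2 change -3.70, SE 0.383, adjusted p 0.00725), and its neighbour Gkn1, whose start lies 22414 bases away, from 6.63 and 8.23 CPM to 0.631 and 0.798 CPM (log2 change -3.38, adjusted p 0.0347). Tff1, a trefoil peptide of the stomach surface with 31.4% of its exon bases opposite another gene, fell from 2790 and 1890 CPM to 312 and 426 CPM (log2 change -2.66, adjusted p 0.00946). The surface mucin Muc5ac fell by 1.87 (adjusted p 0.0374) and Anxa10 by 1.58 (adjusted p 0.0476). The member that rose was Cym. Cblif, gastric intrinsic factor, is not on the list, was chosen after its values were seen and went from 0.339 and 0.162 CPM to 4.23 and 3.54 CPM (log2 change 3.91, adjusted p 0.00567). The gastric falls numbered 1 without MRTX1133 replicate 1, 3 without replicate 2, 2 without vehicle replicate 1 and 3 without vehicle replicate 2. Of 14 intestinal and hepatic markers 1 was called, a share near the 6.27% of all genes: the protocadherin Cdhr2 fell (log2 change -0.64, adjusted p 0.0272), a call lost without any 1 library, and with the block 3 fell and 1 rose, beside 24.1% of all genes.

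Of 24 tested lineage transcription factors 6 fell and 0 rose, beside 3.26% and 3.01% of all genes. Id2, an inhibitor of basic helix-loop-helix factors, went from 329 and 384 CPM to 76.2 and 110 CPM (log2 change -1.94, SE 0.262, adjusted p 0.0131). Klf4 went from 204 and 205 CPM to 63.7 and 90.8 CPM (log2 change -1.41, adjusted p 0.0275), and Sox9 fell by 1.14 on the log2 scale (adjusted p 0.0210). Hnf4a, at 446 and 471 CPM in vehicle and 298 and 242 CPM with MRTX1133, fell by 0.76 (adjusted p 0.0375), a call lost without any 1 of the 4 libraries. Pdx1, the foregut and pancreas regulator, had 20 and 24 counts in vehicle and 3 and 3 counts with MRTX1133, a vehicle to inhibitor ratio of 8.81 with a 95% counting interval of 3.74 to 25.3. The 6 calls came down to 2 without vehicle replicate 2 and to 1 without any other library. With the block 5 factors were called higher and 9 lower (11.4% and 12.7% of all genes), and those newly higher include Foxa1 (log2 change 0.40, adjusted p 0.251 and 0.0158 with the block) and Foxa2 (log2 change 0.25, adjusted p 0.166 and 0.0380 with the block).

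**Figure D2:**
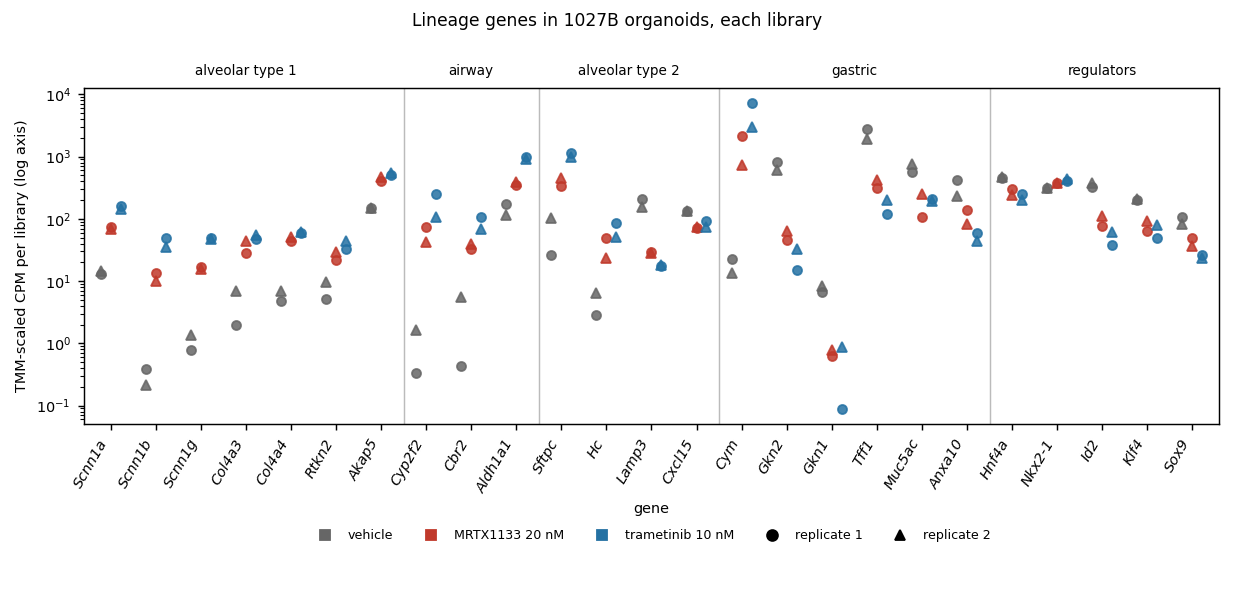
Expression of lineage genes in each 1027B library, as TMM-scaled CPM on a log axis, coloured by treatment (grey vehicle, red MRTX1133, blue trametinib) with circles for replicate 1 and triangles for replicate 2. The 3 sodium channel subunits and the collagen pair stand higher with MRTX1133 in both libraries, Gkn2 and Tff1 stand lower, and Cym rises from 13.4 and 22.6 CPM to 743 and 2116 CPM.

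Genes of the amino acid response were lower. Of 18 tested targets of ATF4, the transcription factor that raises amino acid uptake and synthesis, 8 were called, all lower, beside 3.26% of all genes, and 16 with the block, all lower, beside 12.7%; all 18 had a log2 change below 0 (median -0.63, and -0.61 and -0.64 within the libraries numbered 1 and 2). Slc7a11, with the paired response elements printed above, went from 281 and 347 CPM to 74.9 and 86.7 CPM (log2 change -1.96, SE 0.156, adjusted p 0.00365). Slc7a5, the leucine transporter, went from 135 and 141 CPM to 49.5 and 72.9 CPM (log2 change -1.17, adjusted p 0.0468). Slc3a2, the chain it pairs with, fell by 0.65 (adjusted p 0.0130). Asparagine synthetase, Asns, fell by 0.97 (adjusted p 0.0170), and the mitochondrial folate enzymes Mthfd2 and Shmt2 by 1.10 and 0.79 (adjusted p 0.0312 and 0.0296). The Atf4 transcript itself went from 362 and 433 CPM to 243 and 275 CPM (log2 change -0.62, adjusted p 0.0419). The calls numbered 1 without MRTX1133 replicate 1 or without either vehicle library and 2 without MRTX1133 replicate 2, while the list's median stayed between -0.75 and -0.55 over all alternatives.

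Sterol and sugar metabolism showed small falls that passed the test mainly with the block. The list counts below stand beside all 14555 genes, of which 3375 had an unadjusted p below 0.05 and DESeq2 called 1627. Of 22 genes of cholesterol synthesis 3 were called lower and 18 with the block, none higher (median log2 change -0.42), beside 3.26% and 12.7% of all genes lower. The sterol oxidase Msmo1 went from 461 and 467 CPM to 279 and 273 CPM (log2 change -0.75, adjusted p 0.0210) and the desaturase Sc5d fell by 0.53 (adjusted p 0.0378), and all 3 calls were lost without any 1 of the 4 libraries. Of 17 glycolysis genes 0 were called by edgeR (4 at an unadjusted p below 0.05, 1 by DESeq2, 1 without MRTX1133 replicate 2) and 12 with the block, all lower (median -0.32). Hk1, the first enzyme of the pathway, stood at 547 and 673 CPM in vehicle and at 318 and 436 CPM with MRTX1133 (log2 change -0.69, adjusted p 0.120 and 0.000417 with the block). Among 14 genes of fatty acid oxidation 0 were called by edgeR with TMM scaling (1 with RLE or upper-quartile scaling, 9 at an unadjusted p below 0.05, 4 by DESeq2) and 8 with the block, 6 of them higher (11.4% of all genes), among them the carnitine palmitoyltransferase Cpt1a (log2 change 0.53, adjusted p 0.0826 and 0.00433 with the block). None of 22 lysosome and autophagy genes or of 22 ribosome biogenesis genes was called by edgeR without the block, and 1 lysosome gene was with no count filter. At an unadjusted p below 0.05 they numbered 4 and 2, DESeq2 called 1 and 0, and the block 5 and 2, neither share above the 24.1% of all genes.

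**Figure D3:**
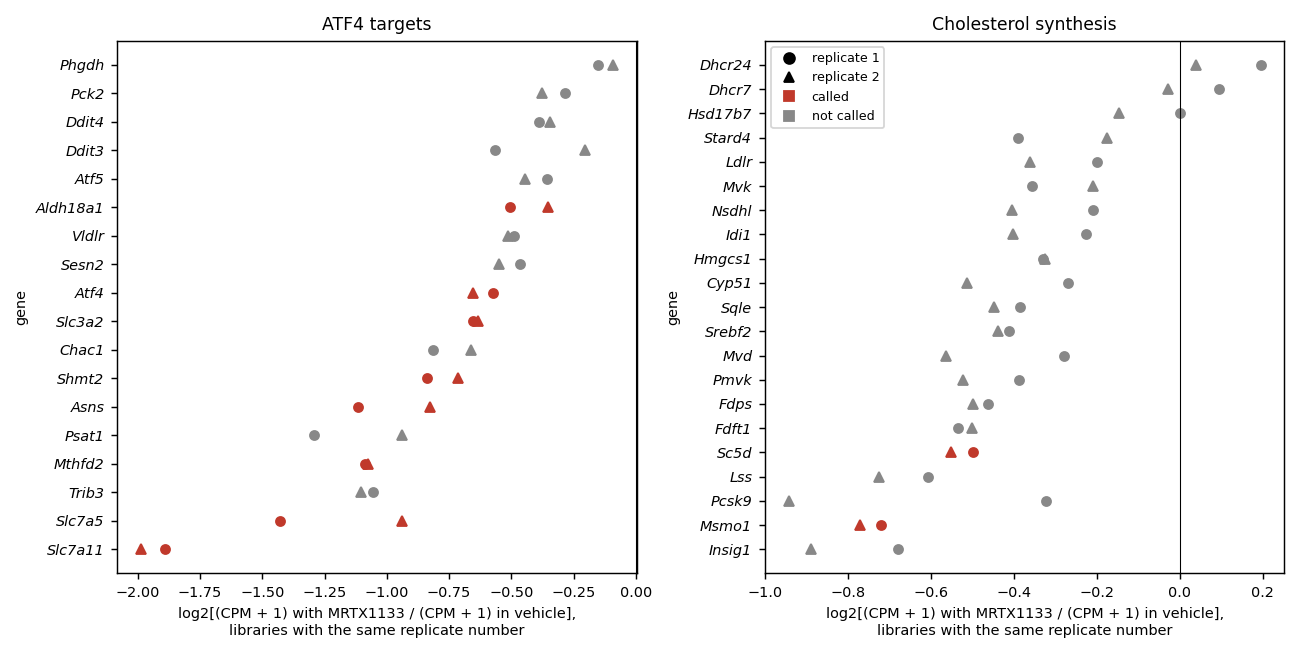
Log2 ratio of CPM plus 1 between the MRTX1133 and the vehicle library of the same replicate number (circles 1, triangles 2), for each ATF4 target and for 21 genes of cholesterol synthesis, with genes called in the unblocked test in red. All 18 ATF4 targets lie below 0 in both replicates, with Slc7a11 lowest, and most of the cholesterol genes lie below 0.

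No gene of the 3 cell cycle lists passed the unblocked edgeR test, and DESeq2 called 0 as well. At an unadjusted p below 0.05 there were 1 of 25 DNA replication genes, 2 of 25 mitosis genes and 4 of 19 cell cycle regulators. Over all genes 3375 of 14555 had such a p, so none of these lists stood out. The 25 DNA replication genes had a median log2 change of -0.04, with 1 called with the block, below the 24.1% of all genes, Gins1, which stood at 21.5 and 17.0 CPM in vehicle and at 13.0 and 12.8 CPM with MRTX1133 (log2 change -0.58, adjusted p 0.120 and 0.0369 with the block). The 25 mitosis genes had a median of -0.31, and 13 were called with the block, all lower, beside 12.7% of all genes lower. Bub1, a spindle checkpoint kinase, stood at 112 and 138 CPM against 69.8 and 98.9 CPM (log2 change -0.57, adjusted p 0.193 and 0.00179 with the block). Mki67 stood at 357 and 481 CPM in vehicle and at 239 and 485 CPM with MRTX1133, so its groups overlapped. The mitosis median ran from -0.65 to -0.03 over the alternatives. Of 19 cell cycle regulators 6 were called with the block, 3 each way, a share not far from the 24.1% of all genes, and the D-type cyclin Ccnd1 had a log2 change of -0.10 (adjusted p 0.836). Beside these, the BCL2 family gave 2 calls among 14 genes, both pro-apoptotic and both higher (3.01% of all genes). With the block, however, 5 were higher and 4 lower (11.4% and 12.7% of all genes). DESeq2 gave 4 and 2 (813 and 814 of all 14555 genes), and only the 2 groups compared 1 and 1 (275 and 353 of 14125). Bmf went from 40.1 and 61.9 CPM to 111 and 117 CPM (log2 change 1.17, adjusted p 0.0260), and Bik from 1.02 and 1.41 CPM to 3.83 and 3.29 CPM (log2 change 1.56, adjusted p 0.0418). Both calls were lost without either MRTX1133 library and without vehicle replicate 1, and that of Bik also without vehicle replicate 2.

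Genes of adhesion and matrix moved both ways, with 4 of 21 higher and 5 lower (3.01% and 3.26% of all genes), and 6 and 9 with the block (11.4% and 12.7%). Itga6 and Itgb4, the 2 chains of the hemidesmosome integrin, fell by 1.19 and 0.80 on the log2 scale (adjusted p 0.00500 and 0.0203), and Itga2, a collagen receptor chain, fell from 595 and 677 CPM to 263 and 190 CPM (log2 change -1.49, adjusted p 0.00946). Itgb6, the epithelial integrin chain that activates TGF-beta, rose from 142 and 112 CPM to 341 and 263 CPM (log2 change 1.25, adjusted p 0.0136). Lamb3, a laminin chain of the basement membrane, rose by 0.85 (adjusted p 0.0174). The metalloproteinase inhibitor Timp3 rose from 144 and 157 CPM to 437 and 535 CPM (log2 change 1.69, adjusted p 0.00529), with 21.3% of its exon bases opposite another gene. The calls came to 2 each way without MRTX1133 replicate 1, 3 higher and 2 lower without replicate 2, and 3 each way without either vehicle library.

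The remaining groups gave few calls, to be read beside 6.27% of all genes called without the block and 24.1% with it. DESeq2 called 1627 of all 14555 genes, 813 higher and 814 lower. Of 18 genes of MHC class I and the interferon response 2 rose: Ifit2, an antiviral effector, from 3.24 and 5.15 CPM to 27.1 and 25.1 CPM (log2 change 2.64, adjusted p 0.00728), and the factor Irf1 (log2 change 0.65, adjusted p 0.0422); with the block 4 rose and 2 fell. Of 12 cytokines 1 fell, the alarmin Il33, from 556 and 491 CPM to 177 and 188 CPM (log2 change -1.52, adjusted p 0.00365), whereas with the block 4 cytokines were higher and 1 lower, and with DESeq2 2 and 1. Of 14 YAP and TEAD targets 2 rose, Ajuba (log2 change 1.06, adjusted p 0.0209) and Amotl2 (log2 change 0.96, adjusted p 0.0111), and 8 were called with the block, 7 of them higher. Of 8 WNT targets 1 fell, Axin2, from 17.0 and 9.75 CPM to 4.49 and 5.43 CPM (log2 change -1.43, adjusted p 0.0415), in organoids grown in WNT-containing medium, and with the block Rnf43, named after its values were seen, rose. Of 13 FoxO and insulin genes the sestrin Sesn3 rose (log2 change 0.86, adjusted p 0.0176), and with the block 3 rose and 3 fell. Of 3 MHC class II genes 1 rose with and without the block, Cd74 (log2 change 1.65, adjusted p 0.0454 without it). Ifit2 and Il33 kept their calls without any 1 library, while Irf1 and Cd74 lost theirs without each; Amotl2 lost its call without MRTX1133 replicate 1, Ajuba and Sesn3 without each library but MRTX1133 replicate 2, and Axin2 without each but vehicle replicate 2.

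**Figure D4:**
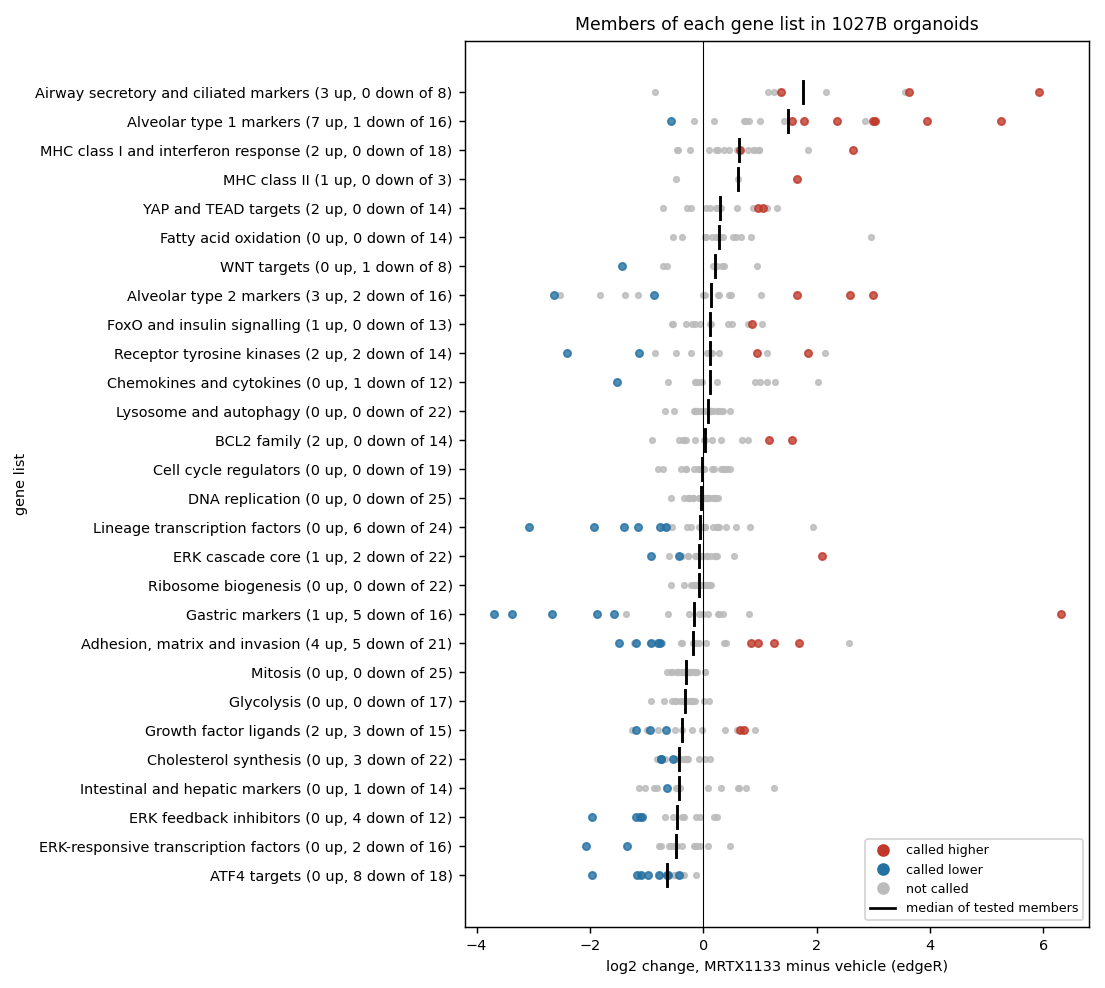
Log2 change with MRTX1133 in 1027B for every tested member of 28 gene lists, one row per list ordered by its median (black bar), with members called higher in red, called lower in blue and not called in grey. The ATF4 and ERK lists have the lowest medians and the airway and alveolar type 1 lists the highest, and the counts in brackets are those of the unblocked test.

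Set directly against trametinib in the same organoids, MRTX1133 gave 0 called genes in the unblocked edgeR test (0%), with 2357 genes at an unadjusted p below 0.05 and a smallest adjusted p of 0.0648. With the block 2050 genes differed (14.1%), 1128 higher with MRTX1133 and 922 lower, and DESeq2 without a block called 667. Doses of the drugs differ (20 nM and 10 nM), so these values compare treatments as given. With the block 6 of 12 ERK feedback inhibitors were higher with MRTX1133 than with trametinib and 1 lower; Dusp6 stood at 30.4 and 47.5 CPM with trametinib (log2 difference 1.63, adjusted p 0.000616). With the block (the unblocked test called 0 genes), all 25 mitosis genes, 20 of 25 DNA replication genes and 21 of 22 cholesterol genes were higher with MRTX1133 than with trametinib, against 7.75% of all genes. Col4a4 and Itga6 were not called with the block either: Col4a4 stood at 59.0 and 61.3 CPM with trametinib (log2 difference -0.35, adjusted p 0.0700) and Itga6 at 278 and 287 CPM (log2 difference 0.22, adjusted p 0.0735). Of 16 alveolar type 1 markers 10 were, with the block, lower with MRTX1133 than with trametinib, against 6.33% of all genes.

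In 3154 organoids with ethanol, 3 nM MRTX1133 changed 54 of 15458 genes (0.349%), 49 higher (0.317%) and 5 lower (0.0323%). That count was 0 without MRTX1133 replicate 1, 18 without replicate 2 and 309 without vehicle replicate 2, and the 2 vehicle libraries of 3154 differed more from each other (chi-square per degree of freedom 79.5) than those of 1027B (35.0). Over all groups, though, the fits of 3154 and 1027B had nearly equal biological coefficients of variation (0.163 and 0.160). DESeq2 called 321 genes in 3154, 218 higher and 103 lower, a less one-sided split. Of 13648 genes tested in both cultures, 879 were called in 1027B, 52 in 3154 and 31 in both. The shared calls are 3.53% of those in 1027B and 59.6% of those in 3154. Of the 31, 28 were higher in both, 2 lower in both and 1, Cxcl15, moved in opposite directions. The shared rises include Cym, Sec14l3, Scnn1b, Scnn1g, Col4a4, Rtkn2, Ifit2 and Cblif. Cym went from 1.14 and 3.40 CPM to 28.1 and 41.3 CPM in 3154 (log2 change 3.93, adjusted p 0.0245), and Scnn1b from 1.18 and 0.839 CPM to 8.15 and 5.55 CPM (log2 change 2.76, adjusted p 0.0133). Among genes called in 1027B 91.1% had the same sign in 3154, against 70.5% of all genes tested in both. The alveolar type 1 list had a median log2 change of 1.40 in 3154 with 7 of 15 members higher, whereas the ERK feedback list had a median of -0.15 with 0 of 12 called, and the ATF4 list a median of -0.45 with 0 of 18 called.

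The response itself differed between the cultures for 4 of 14592 genes (0.0274%), all with a lower change in 1027B. With a replicate block within each culture 366 differed (2.51%), 125 with a higher change in 1027B and 241 with a lower one. DESeq2 called 68, 20 higher and 48 lower. In simulated data the unblocked edgeR test of this difference recovered only 4% of 2-fold and 64% of 4-fold changes. Gkn2 fell from 806 and 617 CPM to 45.3 and 64.3 CPM in 1027B and stood at 45.4 and 40.3 CPM in vehicle and 35.5 and 40.1 CPM with the drug in 3154 (difference of log2 changes -3.51, SE 0.305, adjusted p 0.0185). Lamp3 stood at 67.9 and 53.0 CPM against 57.8 and 51.8 CPM in 3154 (difference -2.48, adjusted p 0.0425) and Pthlh at 18.3 and 18.7 CPM against 16.8 and 14.1 CPM (difference -2.56, adjusted p 0.0185). Cxcl15 rose in 3154, from 55.9 and 49.8 CPM to 118 and 105 CPM (log2 change 1.08, adjusted p 0.0491), while it fell in 1027B (difference -1.95, adjusted p 0.0379). The cultures differ in dose (20 nM and 3 nM) and genotype and were listed in separate tables, which cannot be told apart. Each of the 4 differences was lost without at least 5 of the 8 libraries in turn, and that of Lamp3 also with RLE scaling and with no count filter; over the alternatives the adjusted p reached 0.139 for Gkn2, 0.371 for Lamp3 and Cxcl15 and 0.201 for Pthlh.

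**Figure D5:**
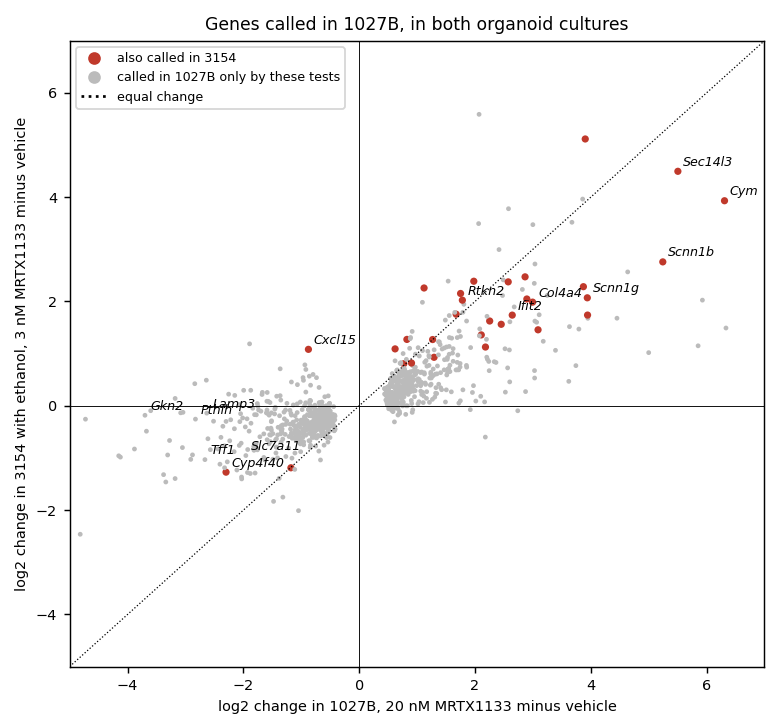
Log2 change with MRTX1133 in 1027B (20 nM, horizontal) and in 3154 with ethanol (3 nM, vertical) for genes called in 1027B and tested in both, with those also called in 3154 in red and the dotted line marking equal change. Most points share their sign, Cym and Scnn1b lie far to the upper right below the dotted line, and Gkn2, Lamp3 and Pthlh lie near 0 on the vertical axis.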

How the data were processed

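RNA of 1027B and 3154 organoids was sequenced from poly(A) selected, strand-specific libraries read as pairs of 150 bases, per the labels' protocols. The values deposited by the authors are unnormalized counts of reads for each Ensembl gene, 1 table per experiment. The submitters' processing notes name cutadapt 3.5, STAR 2.7.6a and featureCounts 1.6.3 and the builds mm10, mm39 and hg38, without saying which build each table used. Coordinates and exon overlaps were taken from GENCODE vM21 (GRCm38), and promoter windows from RefSeq.

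Counts were fitted in R 4.3.3 with edgeR 4.0.16: genes kept by filterByExpr, TMM scaling, the quasi-likelihood F-test, and Benjamini-Hochberg adjustment over all tested genes, with calls at an adjusted p below 0.05. A single fit held all 6 libraries of the 1027B table (3 residual degrees of freedom, biological coefficient of variation 0.160). The 8 libraries of the 48-hour 3154 table shared another (4 residual degrees of freedom, biological coefficient of variation 0.163), which includes 4 libraries given 4-hydroxytamoxifen. The difference between cultures came from a joint fit of 8 libraries over shared genes. CPM values are TMM-scaled and were not divided by gene length. With 2 libraries a group, no exact permutation test can pass the threshold, so all p-values come from these models. Intervals cover counting error only.

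Replicate numbers were checked as pairs by correlating, across genes, the difference between replicates 1 and 2 in log2(CPM + 1) between groups. In 1027B this gave 0.329, 0.503 and 0.557, so counts with the replicate block are printed beside those without it. Alternatives were RLE and upper-quartile scaling, DESeq2 1.42.0, other count filters, the block, only the 2 groups compared, and each library left out. The fits were tested on simulated data with 100 genes changed 2-fold and 100 changed 4-fold. For MRTX1133 against vehicle 62% and 99% of these were recovered in 1027B, and 52% and 97% in 3154. Against trametinib 68% and 93% were recovered, and for the difference between cultures 4% and 64%. In the same order, unchanged genes made up 6.40%, 5.70%, 11.5% and 2.86% of the calls.

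Members and the 28 gene lists (535 genes) were chosen with earlier results of these data known. Named genes are Hnf4a, Nkx2-1, Foxa1 and Foxa2, up to 3 called members per list and direction (2 with the smallest p where none was called), the 8 largest changes each way among called genes of at least 10 CPM in the higher group, the 5 most abundant called genes each way, and genes whose response differed between cultures. A selection is printed, other list members are given as examples, and some genes and an allele that the rule or labels name are not reported here.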

Additional observations from a re-analysis of the deposited data

Results flagged for a closer look

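The change with MRTX1133 differed between 1027B and 3154 organoids for 4 genes by the test of the difference itself in edgeR. The log2 change in 1027B minus that in 3154 was -3.51 for Gkn2, -2.56 for Pthlh, -2.48 for Lamp3 and -1.95 for Cxcl15. Culture, dose and experiment differ together between these libraries and cannot be told apart.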

How the results depend on the processing

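For MRTX1133 against vehicle in 1027B, scaling and count filters kept the 913 calls between 859 and 941; DESeq2 gave 1627, a limit of at least 1 on the log2 change 417, only the 2 groups compared 628, and leaving out a library 138 to 349. Upper-quartile scaling gave 501 higher and 440 lower. Against trametinib the 0 calls became 667 with DESeq2, 1 with only the 2 groups compared, and 0 to 2 without a library. In 3154 the 54 calls became 321 with DESeq2, 0 with only the 2 groups compared, and 0 to 309 without a library. For the difference between cultures the 4 calls became 68 with DESeq2 and 0 to 5 without a library. Leaving out a library leaves 1 sample in a group, which is then assumed to vary like the other groups, and the cause of the remaining shifts was not tested.

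With the replicate block the calls were 3515 against vehicle, 2050 against trametinib, 62 in 3154 and 366 for the difference between cultures. The block ended no call of a named gene against vehicle, and 15 of 18 named genes that were not called passed with it. In the 3154 table the same check gave 0.721 between the 2 groups compared and as low as -0.430 with the 4-hydroxytamoxifen groups of the same fit. Since not every pair of groups correlated, the block is an alternative there and in the difference between cultures. Of the 76 named genes called, 37 to 52 lost their call without 1 library, 16 with only the 2 groups compared and 1 each with RLE, upper-quartile, DESeq2 and no count filter.

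Among list counts, DESeq2 also moved the ERK-responsive transcription factors from 2 calls to 6, and with only the 2 groups compared the alveolar type 2 list went from 3 rises and 2 falls to 1 and 3. The smallest log2 changes called without the block were 0.44 for a rise and -0.42 for a fall.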
